A study of Mus musculus and Rattus norvegicus with 37 samples.

Results

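9 genes induced by interferon or belonging to the Trim (tripartite motif) family were followed through the liver RNA-seq values of 37 animals: Isg15, Ifit1, Ifit2, Ifit3, Irf7, Usp18, Trim14, Trim30a and Trim30d. They were found by exact gene name and were selected on their values in the comparison of the miR-29 inhibitor with saline in mice, Trim14 and Trim30d for going opposite ways in mice of different genotype labels. All 9 were listed among the 47929 uniquely named genes of each mouse table, and 7 of 9 were listed among the 28026 of each rat table, where Trim30a and Trim30d were not.

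The study asked which liver genes respond when the microRNA miR-29 is blocked, and whether the response needs the deacetylase Sirt1. LNA29 is a pair of locked nucleic acid inhibitors against the miR-29 family, given once under the skin at 20 mg/kg each, and the livers were taken from fed mice at day 7. The mice were C57BL/6J females: 8 with LNA29 (4 WT and 4 floxed) and 5 with saline (3 WT and 2 floxed) formed the WT/Floxed groups, and 4 with LNA29 and 4 with saline were labelled L-Sirt1 KO, a liver deletion of Sirt1 whose floxed littermates were the floxed mice. WT mice were 9 to 11 weeks old and the floxed and KO mice 15 to 20 weeks. The rats were males without any miR-29 inhibitor, in 4 groups of 4: Zucker fatty rats (ZFR), which carry a defective leptin receptor, Zucker lean rats (ZLR), both 5.5 months old, and 3 month old ZFR given BT2 (an inhibitor of the kinase that switches off branched-chain ketoacid dehydrogenase) at 20 mg/kg or its vehicle daily for 1 week.

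Interferons are released by cells that sense foreign nucleic acid. They bind receptors that activate a complex of transcription factors, and this complex binds a short DNA element, the interferon-stimulated response element, in front of the genes it switches on. Some of these genes block viral RNA or proteins and others feed the pathway forward or shut it down, and hepatocytes, Kupffer cells and sinusoidal endothelium of the liver can all express them.

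The response element was searched as GAAANNGAAA on both strands in promoter windows of 300 bases (250 before the start site and 50 after it, RefSeq, GRCm38.p6). 7 of the 9 genes had such a window and 5 of these 7 held a match, against 3.99% of the 27025 genes with a window. Shares varied between other lists of pathway genes with a window. Matches were in 10 of 13 interferon-gamma response genes, 12 of 28 other interferon-stimulated genes and 6 of 12 other TRIM genes. They were also in 4 of 9 interferon genes and 3 of 11 nucleic acid sensing genes. The element was found in 2 of 13 interferon receptor and JAK-STAT genes and 0 of 3 ISG15 conjugation enzymes. The stretches around the matches are shown for the 5 members that hold this element. They are written 5′ to 3′ on the strand of the gene, and capitals mark the matches, which overlap each other in Isg15.
Isg15 (chr4:156200855-156200916, minus strand): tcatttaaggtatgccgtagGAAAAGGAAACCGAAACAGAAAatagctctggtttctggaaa
Ifit1 (chr19:34640765-34640833, plus strand): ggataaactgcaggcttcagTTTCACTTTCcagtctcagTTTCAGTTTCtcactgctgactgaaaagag
Ifit3 (chr19:34583353-34583436, plus strand): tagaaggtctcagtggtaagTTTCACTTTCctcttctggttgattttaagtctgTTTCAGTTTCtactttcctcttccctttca
Trim30d (chr7:104507861-104507910, minus strand): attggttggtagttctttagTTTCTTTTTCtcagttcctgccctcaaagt
Trim30a (chr7:104465200-104465249, minus strand): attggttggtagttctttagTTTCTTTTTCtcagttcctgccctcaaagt
The Trim30a and Trim30d stretches shown are the same 50 bases. The match of Trim30d starts 41 bases and that of Trim30a 36 bases before the start site. Trim30a has 2 windows, and the second, not shown, also holds a match, in a stretch that differs from that of Trim30d. Isg15 held 3 matches and Ifit1 and Ifit3 held 2 each. In the windows of Ifit2 and Irf7 these letters were not found. Usp18 and Trim14 had no window. A match is a description of the letters and not evidence of binding.

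LNA29 acts on the 3 members of the miR-29 family, whose mature sequences (RefSeq, GRCm38.p6) are shown with the shared seed, bases 2 to 8, in capitals.
miR-29a-3p: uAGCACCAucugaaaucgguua
miR-29b-3p: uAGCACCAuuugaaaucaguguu
miR-29c-3p: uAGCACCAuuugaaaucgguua
The letters that pair with this seed, TGGTGCT, were found in the longest annotated 3′ UTR (GENCODE vM21) of 0 of the 9 genes, which ran from 160 bases in Isg15 to 2074 bases in Trim14, and in 14.1% of the 21153 genes with an annotated 3′ UTR.

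The deposited unit is a normalized count, an estimated read number per gene divided by a size factor of the library. Mouse libraries held an estimated 42.6 to 78 M (mega) reads and 1 read was worth 0.746 to 1.37 normalized counts, whereas rat libraries held 0.188 to 58.5 M and 1 read was worth up to 10.5. Sirt1, the gene the genotype label names, had a mean of 574 under the KO label and 601 in WT/Floxed mice, in tables normalized apart, and the ranges overlapped. Its counts were 492.7 to 699.1 in the WT/Floxed saline mice, 509.5 to 688.3 with LNA29, and 552.7, 606.9, 616.5 and 568 in the saline and 550.8, 567.5, 595.4 and 534.6 in the LNA29 mice labelled L-Sirt1 KO. These tables count whole genes and do not show single exons, so they do not check the deletion, and the genotype is used here as labelled. The study also measured Sirt1 by RT-qPCR, which was not analysed here.

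In saline WT/Floxed livers all 9 genes were well above the level of single reads. Per kilobase of exon Isg15, a ubiquitin-like protein that is joined to other proteins, had the highest median, 1070 normalized counts per kilobase. Ifit3 followed at 666, Irf7 at 590 and Ifit1 at 422. Usp18 (230), Trim14 (202), Trim30d (137), Trim30a (126) and Ifit2 (77.1) were lower. Exon length was the union over all annotated transcripts. For Irf7 this was 3776 bases, its whole span from 141262706 to 141266481 with introns, so its value is too low and its rank uncertain. In counts not divided by length, the saline ranges of Ifit1 (777.2 to 1263) and Ifit3 (1051 to 1416) overlapped, as did those of Trim30a (419.9 to 633.6) and Trim30d (450.1 to 699.9). Part of the Ifit3 signal may be shared: 31.7% of the 100-base windows of its transcripts, the read length, occur also in Ifit3b. The figure was 4.41% for Trim30a and 4.57% for Trim30d, each with the other, and 3.29% for Ifit1, with Ifit1bl2. On chromosome 4 (GRCm38) Trim14 lies at 46493781 to 46536141 on the minus strand and shares 9852 bases with Nans on the other strand. Whether counting used the strand is not given in the sources used here. Trim30a (104409025 to 104465193) and Trim30d (104470014 to 104507849) are neighbours on the minus strand of chromosome 7. Ifit2, Ifit3 and Ifit1 lie in 1 region on the plus strand of chromosome 19, from 34550694 to 34650009. Within it Ifit3 ends at 34588731 and Ifit1 starts at 34640871.

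**Figure D1:**
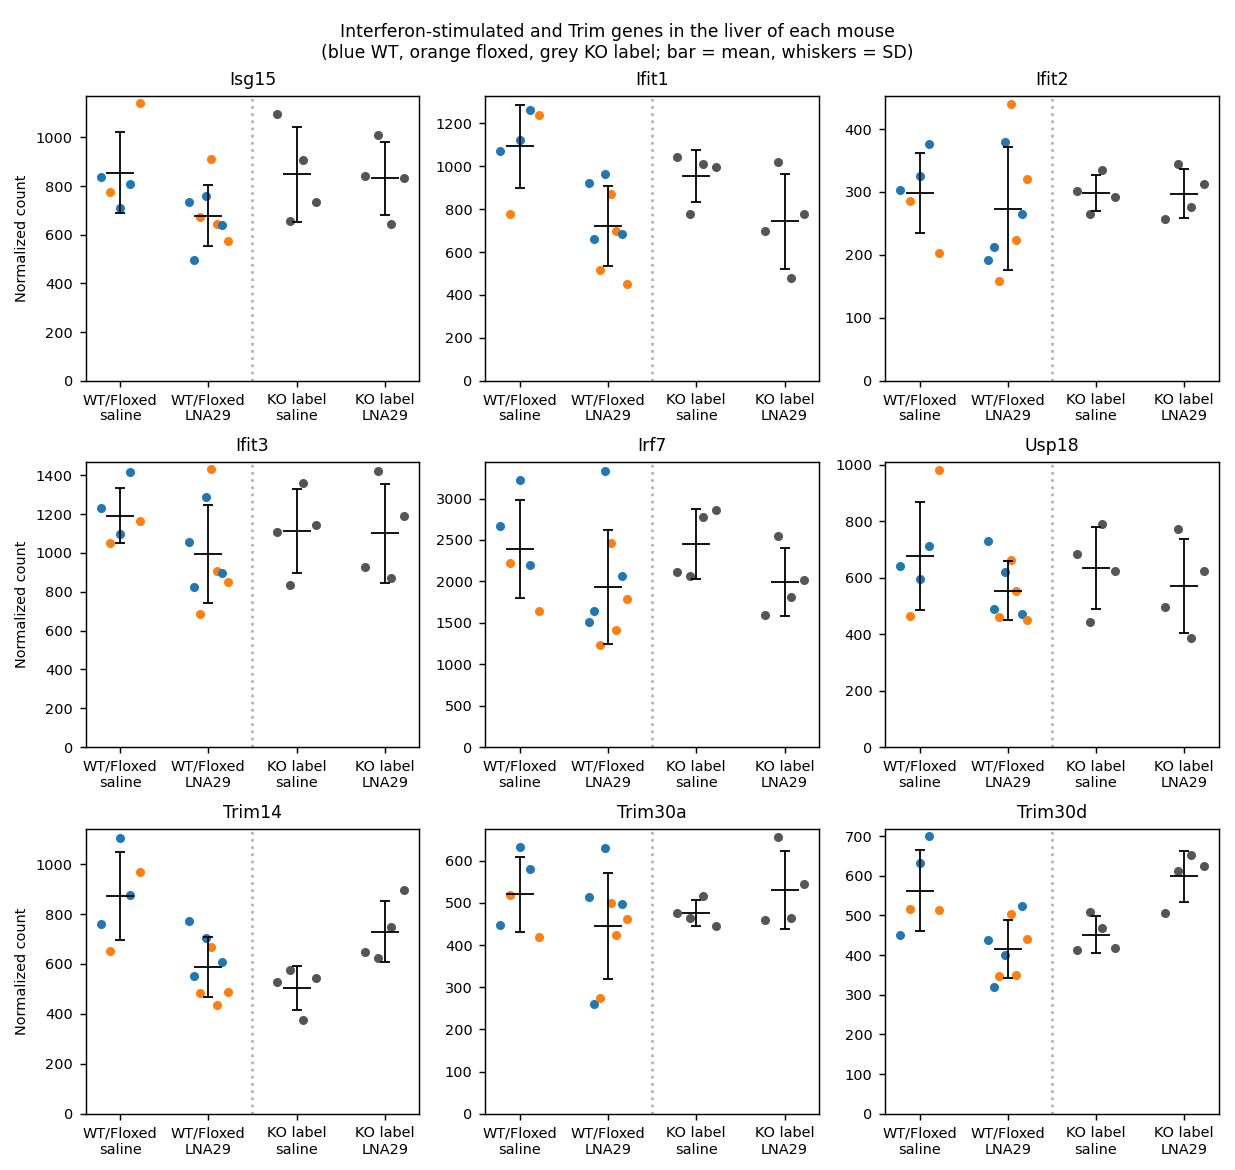
Normalized counts (y axis, from 0) of the 9 genes in each mouse (points), for saline and LNA29, with WT/Floxed values left and KO-labelled values right of the dotted line, normalized apart. The bar is the mean and the whiskers the SD. LNA29 points of Trim14 lie lower on the left, and on the right all 4 lie above the saline points.

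In WT/Floxed mice every one of the 9 genes had a lower mean with LNA29 than with saline. Differences of log2(normalized count + 1), LNA29 minus saline, ran from -0.18 in Ifit2 to -0.63 in Ifit1 with a median of -0.33, against a median of 0 over all 15811 genes tested. 3 of the 9 (Ifit1, Trim14 and Trim30d) met the criteria used for mice (limma p under 0.05, Benjamini-Hochberg adjusted p under 0.2, mean above 50 and fold change above 1.2), where 1.93% of all genes were called lower. Since the genes were selected on this comparison, these counts describe them and test nothing. In no member were the groups fully apart, as they were in 1.51% of all genes.

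Ifit1, which binds viral RNA that lacks a proper cap, showed the largest difference. Its counts were 777.2, 1070, 1121, 1238 and 1263 in the saline mice, and with LNA29 the lowest was 450.5, the median 690.9 and the highest 966.1. The groups overlapped through the single saline mouse at 777.2, and 5 of the 8 LNA29 mice were below it. The difference was -0.63 (SE 0.18).

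Ifit2 and Ifit3 belong to the same family of RNA-binding repeat proteins. Ifit3 was 1190 ± 143 (SD, n = 5) with saline and 993 ± 252 (n = 8) with LNA29, and 5 of the 8 LNA29 mice were below the lowest saline mouse while 1 was above the highest. Ifit2 spanned 203 to 376.3 with saline and 157.8 to 439.2 with LNA29, so that its LNA29 range enclosed the saline range. Its difference of -0.18 was the smallest of the 9.

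Isg15, the modifier itself, had saline counts of 839, 775.1, 710.3, 809.7 and 1140, and with LNA29 its lowest, median and highest were 497.7, 659.1 and 909.8. 5 of the 8 LNA29 mice were below the lowest saline mouse. Usp18, the protease that removes ISG15 and also blocks the interferon receptor, was 678 ± 191 with saline and 554 ± 105 with LNA29. Its saline values ran from 463 to 978.8 and 2 LNA29 mice lay below them.

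Irf7 is the transcription factor that drives interferon-alpha genes. It had a saline range of 1642 to 3228 (median 2227) and an LNA29 range of 1238 to 3335 (median 1714). The highest Irf7 value of all 13 mice came from an LNA29 mouse, replicate 4, and 4 LNA29 mice lay under the lowest saline mouse.

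Trim14, an adaptor at mitochondria in antiviral signalling, had saline counts of 758.7, 652.5, 1106, 877.7 and 969.3. With LNA29 its lowest was 437.3, its median 579.4 and its highest 774. 5 of the 8 LNA29 mice were below all saline mice and 0 were above the saline median. Trim30d spanned 450.1 to 699.9 with saline and 320.2 to 522.6 with LNA29, and 6 of 8 LNA29 mice were below the saline range. Trim30a, which dampens Toll-like receptor signalling, overlapped more, with 419.9 to 633.6 against 260.3 to 630.7.

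The calls of the 3 members past the criteria depended on single mice. Ifit1 met them in 7 of 13 fits that each left out 1 mouse, and not without LNA29 replicate 6 or 7 or saline replicate 1, 3, 4 or 5 (differences of -0.57 to -0.63). Trim14 met them in 12 of 13, and not without saline replicate 3, where the difference was -0.48. Trim30d met them in 5 of 13, and not without LNA29 replicate 2, 3, 6 or 8 or saline replicate 2, 3, 4 or 5 (-0.36 to -0.47). All 3 differences stayed negative in every one of these fits. Without the minimum mean, Trim30d did not meet them (-0.44).

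Both backgrounds were in the WT/Floxed groups and the differences were computed in each alone, with no test. Trim14 differed by -0.46 in the WT mice (4 against 3) and by -0.63 in the floxed mice (4 against 2), Ifit1 by -0.53 and -0.68, and Trim30d by -0.50 and -0.35. Ifit2 differed in sign, at -0.40 in WT and 0.14 in floxed mice. The other 5 members were negative in both backgrounds. Within the 3 sequencing flow cells Trim14, Trim30d, Trim30a and Ifit1 were negative in each (Trim14 -0.90, -0.25 and -0.76), whereas Isg15, Ifit2, Ifit3, Irf7 and Usp18 were positive in at least 1, with 1 saline library in 1 of these flow cells.

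**Figure D2:**
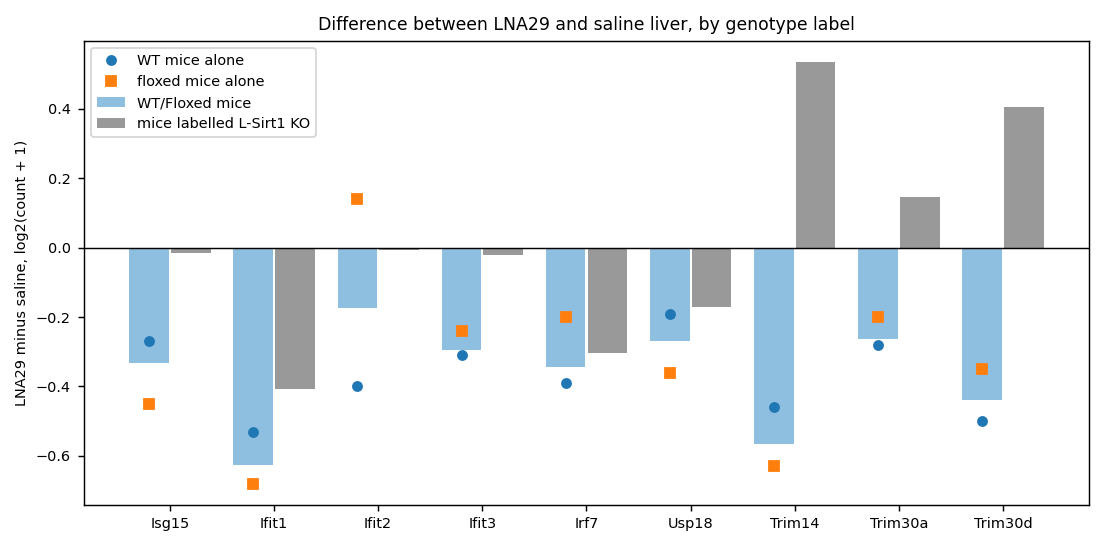
Difference between LNA29 and saline groups in log2(normalized count + 1) (y axis) for each of the 9 genes (x axis). Light blue bars are WT/Floxed mice, grey bars mice labelled L-Sirt1 KO, and points give WT and floxed mice alone. All 9 blue bars lie below 0, and the grey bars of Trim14, Trim30a and Trim30d lie above it.

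In mice labelled L-Sirt1 KO the 9 genes separated. The 6 classical interferon-stimulated genes had differences at or below 0, and the 3 Trim genes were above it. 0 of the 9 met the criteria, where 1.19% of 15885 genes were called higher and 0.68% lower. The median difference of the 9 was -0.02.

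Trim14 was 526.1, 575.1, 375.8 and 543 with saline and 647.5, 625.8, 750.1 and 896.7 with LNA29 under the KO label. All 4 LNA29 mice were above all 4 saline mice, a separation seen in 6.95% of all genes, and the difference was 0.53. Trim30d was 411.9, 509.7, 467.5 and 418.3 with saline and 506.8, 611.5, 653.5 and 624 with LNA29, so that 3 of 4 LNA29 mice lay above the highest saline mouse. Its difference was 0.40, and it was positive within each flow cell, at 0.36, 0.43 and 0.50. For Trim14 these were 0.38, 0.27 and 0.99. Without LNA29 replicate 1 Trim30d met the criteria, with a difference of 0.48, where 231 of 15875 genes were called higher.

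Trim30a had saline counts of 477.3, 464.8, 517.7 and 445 and LNA29 counts of 460.7, 656.7, 463.9 and 544.3, a difference of 0.14 within overlapping ranges. Ifit1 was again the most negative at -0.41, with 1042, 777, 1010 and 994.9 in saline and 696.9, 1019, 477.6 and 777.1 in LNA29 mice, which overlapped. Irf7 differed by -0.30 and Usp18 by -0.17. Isg15 (-0.02), Ifit2 (-0.01) and Ifit3 (-0.02) had nearly equal means, for Isg15 848 ± 195 with saline and 832 ± 150 with LNA29 (n = 4 each).

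The response under the WT/Floxed label minus the response under the KO label was -1.10 for Trim14 and -0.84 for Trim30d, on which these genes were selected and which is therefore given without a test. For Trim30a it was -0.41. For the 6 others it ran from -0.04 in Irf7 to -0.32 in Isg15. For Trim14 the gap between the labels was also one of level, since the saline mice had a median of 877.7 under the WT/Floxed and 534.5 under the KO label, but these 2 tables were normalized apart and the levels are only set side by side.

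The rest of the pathway was read from lists of 117 genes that are not members. In WT/Floxed mice 18 of the 102 tested fell with LNA29 and 0 rose, or 17.6% against the 1.93% of all genes called lower. 80 of the 102 differences were negative, with a median of -0.19. The lists were drawn up with the members' values known, so they are no independent evidence. The count was 10 without LNA29 replicate 8 and 11 without saline replicate 1. It was 1 with the replicate number as a block, a number that did not pair these mice.

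Of 14 receptor and JAK-STAT genes, 2 fell and the median of the list was -0.06. Stat2, a transcription factor activated by the interferon receptors, fell by 0.35 (adjusted p = 0.156, limma).

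Targets of interferon-gamma formed the list with the lowest median, -0.52, and 7 of its 21 genes fell. Irgm1, a GTPase that acts on vacuoles holding microbes, was 4235 to 5267 with saline and 2746 to 3754 with LNA29, without overlap, a difference of -0.55 (SE 0.08, limma adjusted p = 0.00349). Tgtp1 fell by 0.88 (limma adjusted p = 0.149) and the guanylate-binding protein Gbp3 by 0.85 (limma adjusted p = 0.0546). Their ranges overlapped, with Tgtp1 at 636.9 to 1505 in saline and 362.3 to 1046 in LNA29 mice.

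6 of the 38 other interferon-stimulated genes tested fell and 0 rose. Among the 6 were Oasl1, a member of the oligoadenylate synthetase family (-0.69, limma adjusted p = 0.179), the helicase Ddx60 (-0.62, limma adjusted p = 0.112) and Apol9a (-0.56, limma adjusted p = 0.0942). Of the 38 differences 27 were negative and 11 positive. Rsad2 went the other way, with a mean of 1340 (SD 605) with LNA29 and 866 (SD 241) with saline. Of 11 other TRIM genes, Trim12a and Trim21 fell. Trim12a spanned 564.7 to 697.1 with saline and 357.4 to 562.7 with LNA29, without overlap (-0.43, limma adjusted p = 0.0701). Trim21, which binds antibody-coated particles in the cytosol, differed by -0.38 (limma adjusted p = 0.127). Of 15 nucleic acid sensing genes Tlr3, the receptor for double-stranded RNA, fell by 0.37 (limma adjusted p = 0.117). None of 3 ISG15 conjugation enzymes passed, and Uba7, the activating enzyme, had the largest difference, -0.30 (limma adjusted p = 0.232). All 9 interferon genes were under the minimum mean of 10 normalized counts.

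Under the KO label the same lists gave 1 gene called higher and 0 lower of 102 tested, with 50 positive and 52 negative differences and a median of -0.03. The gene was Irf5, a transcription factor of the Toll-like receptor pathway (0.47, SE 0.12, limma adjusted p = 0.189), at 872.4 to 1164 with saline and 1147 to 1489 with LNA29. Irgm1 was -0.13 and Tgtp1 0.06 there. 10 of the 102 genes had an unadjusted p under 0.05, as did 11.2% of all genes. In each of the other 5 lists the gene with the largest difference did not pass. These were Socs3 (-1.15, limma adjusted p = 0.578), Rsad2 (0.53, limma adjusted p = 0.349), Trim30b (-0.50, limma adjusted p = 0.657), Gbp9 (0.42, limma adjusted p = 0.316) and Herc6 (-0.10, limma adjusted p = 0.871).

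A gene past the threshold under one label and not under the other is not thereby shown to differ between them. When the difference was tested as an interaction in limma, 0 of 101 pathway genes had an adjusted p under 0.2, where 0.0449% of 15601 genes did, and 19 of the 101 had an unadjusted p under 0.05, against 9.14% of all genes. 74 of the 101 differences were negative. With sample quality weights in the fit 12 passed, but the share of all genes in that fit is not given here. Such weights raised calls in general. In WT/Floxed mice, over all genes, they went from 383 to 658 higher and from 305 to 650 lower. Ddx60 (-0.87, limma adjusted p = 0.413), Trim5 (-0.58, limma adjusted p = 0.453) and Gbp10 (-1.11, limma adjusted p = 0.423) had the largest differences in their lists, as did Socs3 (1.08, limma adjusted p = 0.735), Tlr9 (-0.82, limma adjusted p = 0.768) and Uba7 (-0.39, limma adjusted p = 0.567).

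**Figure D3:**
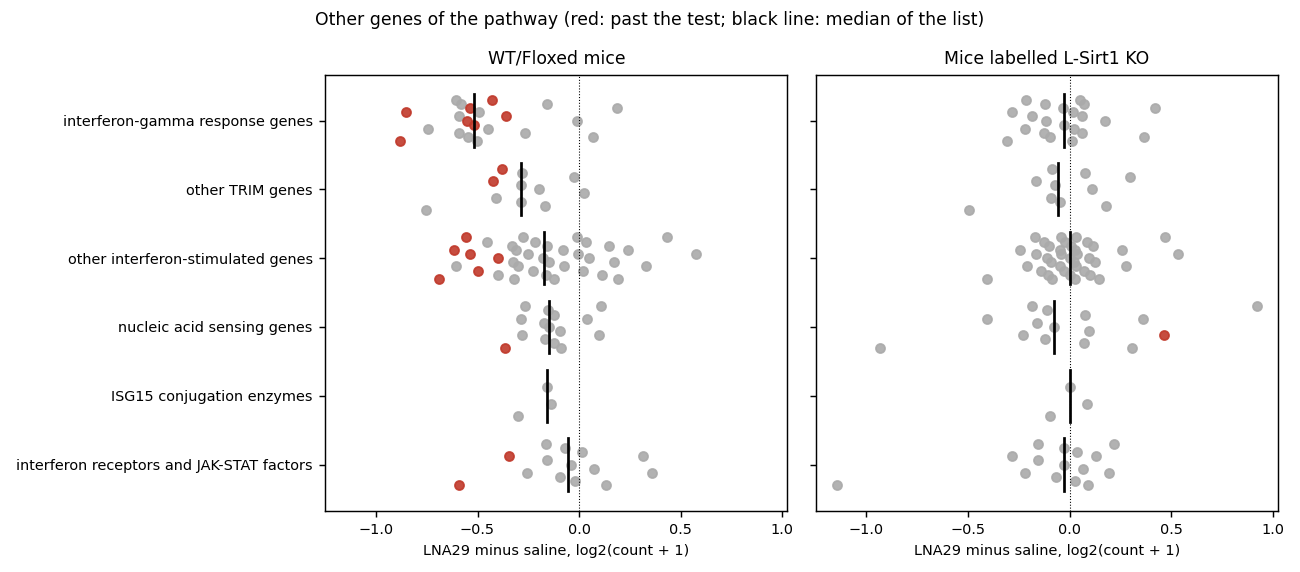
Difference between LNA29 and saline in log2(normalized count + 1) (x axis) of the tested genes of 6 pathway lists (y axis), in WT/Floxed mice (left) and mice labelled L-Sirt1 KO (right). Each point is a gene, red points passed the criteria and black lines are list medians. The left panel holds 18 red points, all below 0, and the right panel 1, above 0.

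The members also varied from mouse to mouse within a group. After the group mean of each gene was removed on the log2 scale, the 15 pairs among Isg15, Ifit1, Ifit2, Ifit3, Irf7 and Usp18 had a median Pearson r of 0.59 over the 13 WT/Floxed mice (-0.04 to 0.83) and of 0.83 over the 8 mice labelled L-Sirt1 KO (0.27 to 0.97). These correlations are descriptions, and the points share libraries and their normalization. Ifit3 followed the mean of the other 5 most closely in WT/Floxed mice, r = 0.95, and Usp18 in those with the KO label, r = 0.99.

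The Trim genes split here as well. Trim30a followed the mean of the 6 with r = 0.70 in WT/Floxed mice and 0.84 under the KO label. Trim14 had r = 0.66 in WT/Floxed mice and -0.44 under the KO label, and Trim30d 0.49 and -0.20. With 8 mice and deviations this small, no difference between these values was tested.

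Of the LNA29-treated WT/Floxed mice 3 lay farthest from their group mean. The 6 genes were on average 0.46 above their group mean in replicate 5 and 0.44 above it in replicate 4, with 6 of 6 genes higher in each, and 0.41 below it in replicate 3 (value -0.41). Under the KO label LNA29 replicate 2 stood at 0.38 and replicate 3 at -0.33, and saline replicate 2 at -0.32. The genes outside the 9 whose deviations were most like this mean in WT/Floxed mice (of 12867 with a mean of at least 50) were Ifit3b (r = 0.929), Rsad2 (0.925), Tgm2 (0.921), Itpk1 (0.894) and Iqsec1 (0.892). Ifit3b shares sequence with Ifit3, and Rsad2 is another interferon-induced antiviral enzyme. Over the 8 KO-labelled mice they included Kif5a (0.977), Dhx58 (0.974), 1500011B03Rik (0.969) and Gm16740 (0.967) of 12904 genes.

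**Figure D4:**
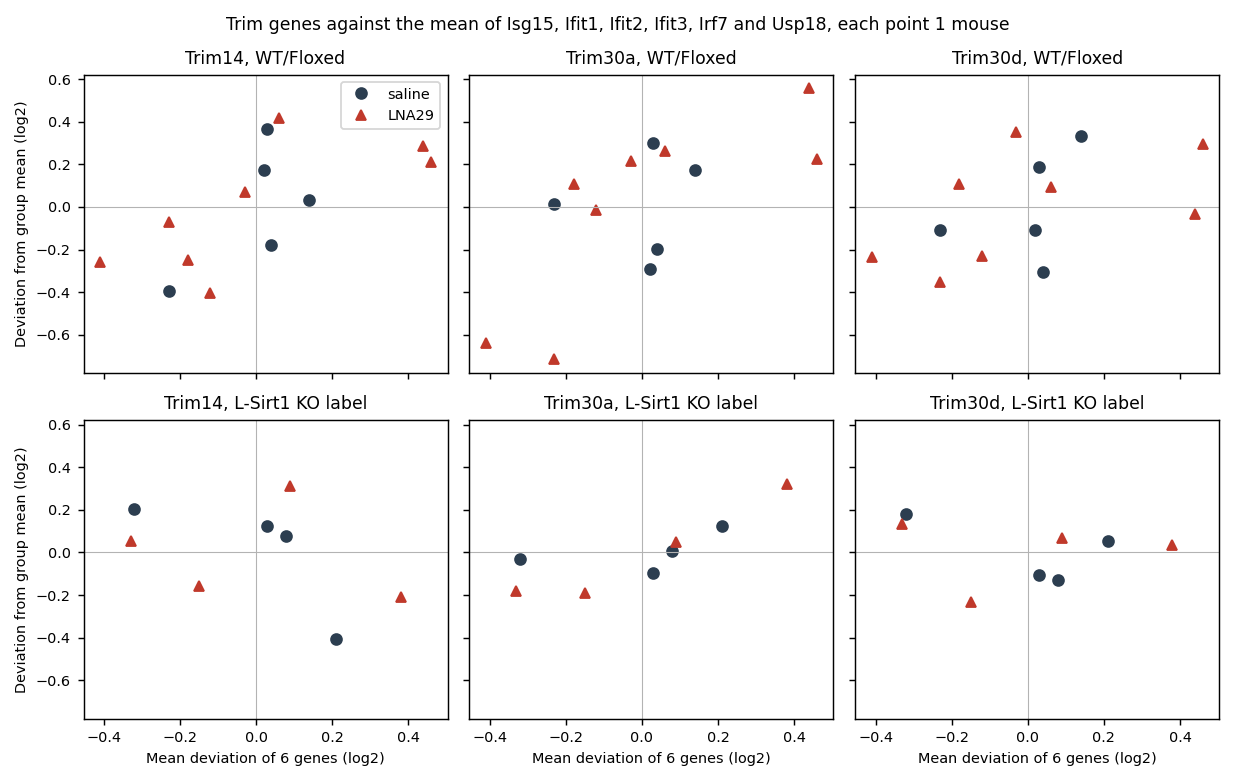
Deviation from the group mean (log2) of Trim14, Trim30a and Trim30d (y axes) against the mean deviation of Isg15, Ifit1, Ifit2, Ifit3, Irf7 and Usp18 (x axis), with WT/Floxed mice above and mice labelled L-Sirt1 KO below. Each point is 1 mouse, circles saline and triangles LNA29. Trim30a rises with the x axis in both rows (r = 0.70 and 0.84), and Trim14 has r = 0.66 in the upper and -0.44 in the lower row.

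Livers hold several cell types that express these genes, and in bulk tissue fewer cells of a type and less RNA per cell cannot be told apart. Hepatocyte markers summed to 5910000 to 8760000 normalized counts with saline and 7480000 to 9090000 with LNA29 in WT/Floxed mice. Under the KO label the sums were 6650000 to 7840000 with saline and 7400000 to 8470000 with LNA29. Most of this was Alb, with WT/Floxed medians of 5051000 and 5057000 beside sum medians of 7760000 and 7940000. Of the 8 markers 1 was called higher in WT/Floxed mice and 0 under the KO label. Of 10 macrophage and Kupffer cell markers 9 were lower with LNA29 in WT/Floxed mice (median -0.35, 0 called), and their sum was 17800 to 30000 with saline and 9700 to 50700 with LNA29. The highest sum, 50700, was that of LNA29 replicate 4, which had the highest Irf7, and the lowest, 9700, that of replicate 3, where the 6 genes were lowest. Replicate 5, the other mouse with high values of the 6 genes, had 26400. Of the other LNA29 mice, replicates 1 and 8 did not keep this order. Replicate 1 had 9980 with the 6 genes 0.06 above their group mean, and replicate 8 had 25700 with a value of -0.18. Replicates 2, 6 and 7 kept it among themselves, with sums of 12700, 14700 and 22700 and values of -0.23, -0.12 and -0.03. Under the KO label, where the 6 genes had a difference near 0 in 3 cases and Trim14 and Trim30d were higher, the macrophage sum was also lower with LNA29, 17100 to 21300 against 21700 to 25600, with 2 of 10 markers called, Clec4f (-0.29, limma adjusted p = 0.189) and Vsig4 (-0.54, limma adjusted p = 0.0891). Of 6 sinusoidal endothelial markers 1 was called lower in WT/Floxed mice, Lyve1 (-0.51, limma adjusted p = 0.165), and their sum was 8470 to 12800 with LNA29 and 10000 to 12400 with saline. Under the KO label 2 of 6 were called lower, Lyve1 (-1.17, limma adjusted p = 0.115) and Stab1 (-0.53, limma adjusted p = 0.028), and the sum was 10200 to 11200 with LNA29 and 11300 to 12400 with saline. Plasmacytoid dendritic cell markers, for the cells that make most interferon-alpha, summed to 398 to 828 with LNA29 and 462 to 779 with saline in WT/Floxed mice. Most of this sum was Irf8, also in the interferon-gamma list, with medians of 383.3 and 462.8 beside sum medians of 579 and 699. Siglech had medians of 17.97 and 17.59, so the sum says little about these cells. The part of the cell types in the differences of the 9 genes was not tested.

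WT and floxed mice were compared with the treatment as a covariate, a contrast that played no part in selecting the genes. 0 of the 9 genes met the criteria in limma and 0 had an unadjusted p under 0.05, where 7.26% of 15811 genes were called higher and 7.48% lower in floxed mice. The nearest, floxed minus WT, were Trim14 at -0.29 (SE 0.14, limma adjusted p = 0.2), Ifit1 at -0.32 (SE 0.16, limma adjusted p = 0.234) and Irf7 at -0.36 (SE 0.20, limma adjusted p = 0.273). The ranges overlapped: Trim14 was 550.4 to 1106 in 7 WT and 437.3 to 969.3 in 6 floxed mice, Ifit1 658.6 to 1263 and 450.5 to 1238, and Irf7 1509 to 3335 and 1238 to 2467. Isg15 differed by 0.15 (limma adjusted p = 0.502). The other 5 differences ran from -0.05 in Usp18 to -0.19 in Trim30a. With the flow cell as a covariate all 3 of Trim14, Ifit1 and Irf7 met the criteria at -0.30, -0.34 and -0.38. In that fit 1314 of 15811 genes were called higher and 1377 lower. Without LNA29 replicate 5 the same 3 met them at -0.36, -0.41 and -0.48, where 1275 of 15821 genes were called higher and 1304 lower. Without LNA29 replicate 1 Irf7 did (-0.45), where 1334 of 15795 genes were called lower. Without LNA29 replicate 2 Trim30a (-0.35), Ifit1 (-0.37) and Trim14 (-0.33) did, with 1385 of 15794 genes lower. Without saline replicate 5 Ifit1 (-0.43) and Trim14 (-0.38) did, with 768 of 15809 genes lower. Without saline replicate 1 Trim14 (-0.34) did, with 1109 of 15811 genes lower. Background, age and source of the mice go together here and cannot be told apart.

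Of the 102 pathway genes tested, 8 were higher and 12 lower in floxed mice, 7.84% and 11.8%, near the shares of all genes. Ifi27l2b (0.60, limma adjusted p = 0.00875) and Ifi27 (0.49, limma adjusted p = 0.0188), the tetherin gene Bst2 (0.37, limma adjusted p = 0.015) and Irf1 (0.61, limma adjusted p = 0.0292) were higher, as were Socs3 (0.88), Mavs (0.26), Igtp (0.33) and Irgm2 (0.29). Samd9l (-0.42, limma adjusted p = 0.0228), Trim25, a ligase for the RNA sensor RIG-I (-0.40, limma adjusted p = 0.0305), and Gbp3 (-0.51, limma adjusted p = 0.0603) were lower, as were Parp12 (-0.31), Ly6e (-0.28), Stat3 (-0.45), Ifih1 (-0.37), Herc6 (-0.36), Gbp10 (-0.51) and Gbp2 (-0.42).

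In rats most members were at the level of a few reads. Of the 7 listed, 4 (Ifit2, Irf7, Usp18 and Trim14) in the comparison of ZFR with ZLR and 2 (Ifit2 and Trim14) in that of BT2 with vehicle had a mean of at least 10. 0 of the 4 had an adjusted p under 0.05 in limma between ZFR and ZLR, and 0 an unadjusted one, where 1.8% of 8633 genes were called higher and 2.46% lower, and 1 (Irf7) had a difference above 1 on the log2 scale.

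Ifit2 was 42.19, 48.1, 31.6 and 31.33 in ZLR and 48.82, 40.01, 54.32 and 66.89 in ZFR, and 3 of 4 ZFR were above all ZLR. The difference was 0.44 (SE 0.23, limma adjusted p = 0.372; two-sided exact permutation p = 0.114, where 0.0286 is the smallest that 4 against 4 allows). Trim14 overlapped, with 107.5, 104.4, 63.32 and 156.6 in ZLR and 104.7, 102.4, 123.2 and 133.8 in ZFR (0.16, SE 0.25, limma adjusted p = 0.753). ZLR replicates 3 and 4 held only 0.188 and 0.189 M reads, at 10.5 and 10.4 normalized counts per read.

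Irf7 was 9.426, 56.27, 0 and 0 in ZLR and 14.83, 12.94, 22.98 and 15.55 in ZFR. The difference of 1.80 (SE 1.24, limma adjusted p = 0.501) was 1.03 without ZLR replicate 3 or without ZLR replicate 4, the shallow libraries with the zeros, 2.98 without ZLR replicate 2, and -0.83 when libraries were weighted by quality. Usp18 was 2.95, 25.35, 10.53 and 10.44 in ZLR and 5.696, 7.06, 18.8 and 7.777 in ZFR, and 10.53 and 10.44 are 1 read each (-0.14, limma adjusted p = 0.931). Isg15, Ifit1 and Ifit3 had means of 7.41, 6.27 and 9.37 over the 8 rats, under the minimum, with 1, 2 and 1 zeros and exact permutation p of 0.914, 0.514 and 0.371.

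1 deep library stood apart in these genes. Among the 3 rats with 46.1 to 58.5 M reads, ZLR replicate 2 had 17.92 for Isg15, 28.76 for Ifit1, 15.33 for Ifit3, 56.27 for Irf7 and 25.35 for Usp18. ZLR replicate 1 had 4.79, 1.609, 5.441, 9.426 and 2.95, and ZFR replicate 1 had 5.245, 6.339, 7.723, 14.83 and 5.696. At this depth 1 read was worth 0.0322 to 0.0432 normalized counts, and Ifit1 rested on about 666 reads in ZLR replicate 2, 42 in ZLR replicate 1 and 197 in ZFR replicate 1. Ifit2 (48.1 against 42.19 and 48.82) and Trim14 (104.4 against 107.5 and 104.7) differed less.

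Between BT2 and vehicle livers 0 of the 2 members tested passed in limma and 0 had an unadjusted p under 0.05, with adjusted p of 0.898 and above. Ifit2 was 44.47, 36.04, 28.42 and 30.97 with vehicle and 32.03, 22.69, 34.81 and 43.51 with BT2 (-0.09, SE 0.27, limma adjusted p = 0.965). Trim14 was 137.1, 122, 100.8 and 165.2 with vehicle and 106.7, 90.78, 119.1 and 92.44 with BT2, a difference of -0.34 (SE 0.19, limma adjusted p = 0.898, exact permutation p = 0.114), and 2 of the 4 BT2 rats were below all vehicle rats. limma called 0 of 8405 genes in this comparison, 0% in either direction, with 332 at an unadjusted p under 0.05. Isg15, Ifit1, Ifit3, Irf7 and Usp18 had means of 5.22, 3.49, 4.63, 7.55 and 4.7, with exact permutation p of 0.2 to 1.

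Of the other pathway genes 2 of 52 tested were higher in ZFR than in ZLR, Stat3 (0.85, SE 0.11, limma adjusted p = 0.00231) and Ifi27l2b (1.31, SE 0.26, limma adjusted p = 0.0212), and 0 of 49 passed with BT2 in limma, where 1 had an unadjusted p under 0.05. The largest difference that did not pass was that of the chemokine Cxcl9 between ZFR and ZLR (3.31, limma adjusted p = 0.12), at a mean of 24 normalized counts. In the other lists these were Ikbke (2.42, limma adjusted p = 0.19), Herc6 (2.39, limma adjusted p = 0.297) and Trim25 (-0.46, limma adjusted p = 0.441). With BT2 they were Socs3 (2.14), Irf1 (2.03), Trim21 (1.53), Myd88 (0.66), Parp12 (-0.42) and Ube2l6 (-0.41), with limma adjusted p of 0.898 to 0.916.

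**Figure D5:**
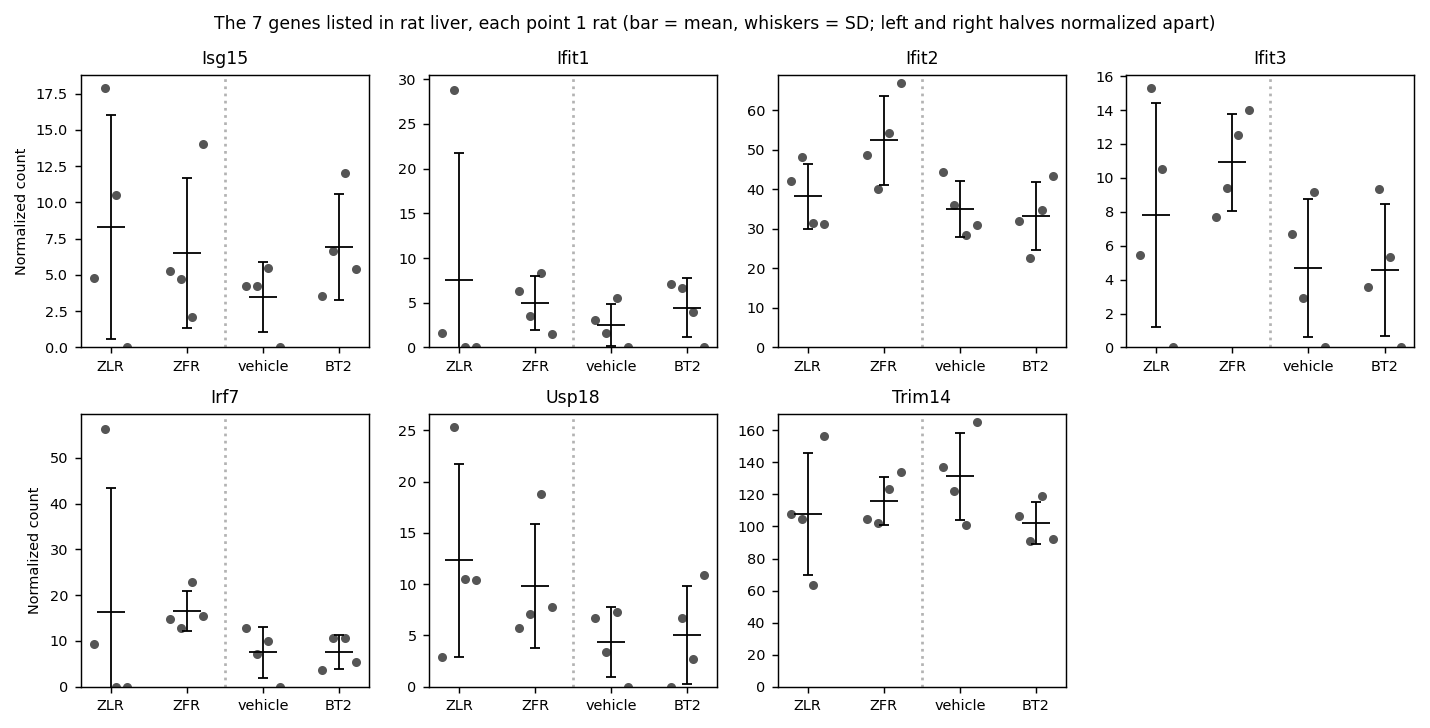
Normalized counts (y axes, from 0) of the 7 genes listed in rats, each point 1 rat, in ZLR, ZFR, ZFR with vehicle and ZFR with BT2 (x axis), with mean and SD. The pairs of groups left and right of the dotted line were normalized apart. ZLR replicate 2 gives the highest ZLR point of Ifit1 (28.76) and Irf7 (56.27).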

How the data were processed

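The authors aligned single-end liver RNA-seq reads to mm10 or rn6 with STAR, estimated gene counts with Salmon and divided them by DESeq2 factors. The deposited values are this signal, normalized counts, and each of the 4 tables was normalized on its own. The authors left out 1 saline floxed mouse. Between 69.5% and 90.3% of low values were whole multiples of 1 read (within 0.01), so whole reads were not recovered and no count model was run. Depth was estimated as the sum of a library divided by its most frequent value above 0. Every column matched a sample (0 unmatched). Entries without a gene name (0.0134% to 0.0461% of the counts) and repeated names were left out.

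Tests used limma 3.58.1 in R 4.3.3 (trended eBayes) on log2(normalized count + 1) for genes with a mean of at least 10, adjusted over all of them. Fold changes on this scale understate low genes. Rat members also had exact permutation tests, whose p are given unadjusted for the 7 genes in the tables. Replicates are livers of separate animals, and p-values set a group difference against the spread between these libraries. Sequences were read with Python 3.11.15. The fits were tested on simulated data.

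The members and lists were chosen with earlier results of these data known. The text names every member, from each list up to 3 genes called in each direction with the largest difference or otherwise the largest, the 5 genes most like the members, and Sirt1, and some genes these rules pick are not reported here. As alternatives the fits were run with a pseudocount of 10, without the minimum mean, with TMM scaling, with sample quality weights, with the flow cell, the WT or floxed background or the replicate number as a term, at an adjusted p under 0.05, and with each library left out.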

Additional observations from a re-analysis of the deposited data

Results flagged for a closer look

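In 3 of 64 groups of values, 1 library lay farther from the rest of its group than Dixon's test allows, where chance alone gives about 1 in 20. Ifit1 was 28.76 in ZLR replicate 2 against 0 to 1.609 in the other 3 lean rats, and Irf7 was 56.27 in the same library against 0 to 9.426. Usp18 was 18.8 in ZFR replicate 3 against 5.696 to 7.777 in the other 3 fatty rats. ZLR replicate 2 held 46.1 M reads and ZFR replicate 3 held 0.952 M, where 1 read is worth 2.09 normalized counts. The zeros of Ifit1 and Irf7 were those of ZLR replicates 3 and 4, with 0.188 and 0.189 M reads. There 1 read is worth 10.5 and 10.4 normalized counts, so these libraries cannot show values as low as 1.609 or 9.426. The part of depth in these values was not tested.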

How the results depend on the processing

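The 9 differences between LNA29 and saline in WT/Floxed mice stayed negative under every alternative run, and the counts past the criteria did not stay as they were. The 3 members called lower became 2 with no minimum mean, 0 with an adjusted p under 0.05 and 0 with the replicate number as a block, and 0 to 3 when each library was left out. The 18 pathway genes called lower became 11 with no minimum mean, 35 with sample quality weights (where 650 genes in all were called lower, against 305), 4 with an adjusted p under 0.05, 1 with the block, and 10 to 27 with each library left out. The 0 called higher became 1 with the weights and 1 with the WT or floxed background in the fit. Replicate numbers did not pair the animals (correlations of same-numbered deviations from -0.35 to 0.28).

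Under the KO label the 1 pathway gene called higher became 0 with no minimum mean, the flow cell, the block or an adjusted p under 0.05, and 0 to 2 with each library left out. Sample quality weights gave 2 members higher, 2 pathway genes higher and 2 lower, where 443 of 15885 genes were called higher and 361 lower. Leaving out each library gave 0 to 1 members higher. The 0 pathway genes whose response differed between labels became 12 with the weights and 0 to 1 with each library left out. The share of all genes in the weighted fit is not given here.

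Between floxed and WT mice the 0 members called lower became 1 with the weights, 3 with the flow cell and 0 to 3 with each library left out. Over all genes 1218 were called lower with the weights and 1377 with the flow cell, against 1183. The 8 pathway genes higher became 4 with an adjusted p under 0.05 and 5 to 10 with each library left out, and the 12 lower became 7 with no minimum mean, 3 with an adjusted p under 0.05 and 5 to 16. Usp18 ran from -0.21 to 0.08 with each library left out, at 0.03 without LNA29 replicate 1, 0 without LNA29 replicate 8 and 0.08 without saline replicate 2.

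In rats the 2 pathway genes higher in ZFR became 4 with a pseudocount of 10, 1 with no minimum mean and 1 to 3 with each library left out. Irf7 changed sign to -0.83 with the weights, Usp18 to 0.05 without ZFR replicate 1 (range -0.62 to 0.05), Trim14 to -0.07 without ZLR replicate 3 (range -0.07 to 0.37), and Ifit2 between BT2 and vehicle to 0.03 without vehicle replicate 1 and 0.08 without BT2 replicate 2 (range -0.22 to 0.08). The cause was not tested for any of these. The block changed no call of a rat member. Depth limits the rat values, where 1 read is worth up to 10.5 normalized counts, and in mice the number of animals limits the precision.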
